A study of Mus musculus with 26 samples.

Results

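Chromatin at the promoters of 39 genes of the BMP, GDF and Nodal pathway was followed in mouse embryonic stem cells. The set was 25 ligand genes of the TGF-beta superfamily, 7 genes of secreted antagonists or of an inhibitory subunit, 6 receptor genes and the protease gene Bmp1, out of 26180 genes with a curated RefSeq start site. A promoter reached 1.5 kb either side of a start site, and in each deposited table the region that overlapped it most was kept. The libraries came from E14 mouse embryonic stem cells, a non-clonal wild-type line, with 2 biological replicates, from WT clones 57 and 58, and from DKO clones 43 and 53, which lack Dppa2 and Dppa4. Dppa2 and Dppa4 encode a pair of small chromatin proteins of early embryos and stem cells. All cells were kept without feeders in serum and LIF, and each clone was a single clonal line, so 2 clones stood for a genotype. Chromatin was cut with MNase and immunoprecipitated in 2 successive rounds. K4-K27 denotes the antibody against H3K4me3 followed by that against H3K27me3, K27-K4 the reverse order, and the in-line totals are the 10% of chromatin taken after the first round. IgG–IgG reChIPs were made once in E14 cells and once in WT clone 57, which gave 26 libraries.

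BMPs, GDFs, activins and Nodal are secreted dimers that bind a pair of receptor kinases, called type I and type II, whose signal reaches the nucleus through SMAD proteins. Secreted antagonists such as Noggin, Chordin, Follistatin and the Lefty proteins hold ligands or co-receptors back, and the balance of ligand and antagonist patterns the axes of the embryo. H3K4me3 marks active and poised promoters, H3K27me3 is laid down by Polycomb, and chromatin that carries both on the same fragment is called bivalent. In stem cells bivalent promoters are typical of developmental regulators that are not yet expressed.

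Library depth ran from 6741244 to 47903462 reads, and the deeper E14 replicate 2 came from another sequencing batch than replicate 1. The clones formed another batch, so E14 cells and clones cannot be told apart from their batches and no test was made between them. All 10 stem cell markers had a promoter region in the total H3K4me3 tables of E14 cells and WT clones, as had 5 of 8 fibroblast markers in each, with Col3a1, Lum and Dcn absent from both. Total H3K4me3 at the Dppa2 promoter stood 2.33 and 1.20 above IgG–IgG on the log2 scale in WT clones and 2.50 and 1.76 in DKO clones, and at Dppa4 2.47 and 1.58 against 2.52 and 1.69, a readout that does not check the deletion. Total H3K4me3 of WT clone 57 stood apart, with a median enrichment of 2.14 at the E14 regions beside 1.11 in WT clone 58. In all 17 clone libraries, IgG–IgG included, regions of chromosome 14 from 40 to 90 Mb lay -1.18 to -0.90 from the rest of the genome on the log2 scale, beside -0.10 to 0.03 in E14 libraries. Bmp4 and Bmp1 lie in that segment, so their clone values include that lower level, in both genotypes.

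Promoters that stand for the patterns described below are printed from RefSeq (GRCm38.p6, the build of the tables) as the 250 bases before the start site, 5′ to 3′ on the strand of the gene, with CG dinucleotides in capitals. Bmp6 (chr13:38345466-38345715, plus strand) and Grem1 (chr2:113758649-113758898, minus strand) were among the most enriched in the reChIPs, Acvr2a (chr2:48813859-48814108, plus strand) and Nodal (chr10:61417722-61417971, plus strand) had more H3K4me3 than H3K27me3, and Bmp5 (chr9:75775115-75775364, plus strand) and Bmp10 (chr6:87428744-87428993, plus strand) had no region in any table.
Bmp6: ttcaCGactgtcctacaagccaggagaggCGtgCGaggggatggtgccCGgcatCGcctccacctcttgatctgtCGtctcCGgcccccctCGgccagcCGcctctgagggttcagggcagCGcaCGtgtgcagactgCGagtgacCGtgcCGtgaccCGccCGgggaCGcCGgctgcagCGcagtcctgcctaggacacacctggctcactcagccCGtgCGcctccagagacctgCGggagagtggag
Grem1: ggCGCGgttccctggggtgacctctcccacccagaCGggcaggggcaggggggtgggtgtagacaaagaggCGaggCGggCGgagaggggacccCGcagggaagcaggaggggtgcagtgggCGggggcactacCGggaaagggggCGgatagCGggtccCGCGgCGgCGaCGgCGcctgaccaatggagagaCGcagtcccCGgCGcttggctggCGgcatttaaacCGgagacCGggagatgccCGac
Acvr2a: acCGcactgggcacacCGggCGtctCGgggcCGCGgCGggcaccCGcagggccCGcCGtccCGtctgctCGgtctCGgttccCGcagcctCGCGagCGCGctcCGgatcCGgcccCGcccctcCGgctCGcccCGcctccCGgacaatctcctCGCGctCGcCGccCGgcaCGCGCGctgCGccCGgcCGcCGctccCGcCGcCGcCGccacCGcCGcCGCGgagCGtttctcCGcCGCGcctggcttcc
Nodal: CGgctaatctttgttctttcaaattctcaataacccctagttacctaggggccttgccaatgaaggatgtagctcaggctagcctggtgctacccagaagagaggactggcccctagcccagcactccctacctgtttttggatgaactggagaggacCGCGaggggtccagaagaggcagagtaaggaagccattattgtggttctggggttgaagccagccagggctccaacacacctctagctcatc
Bmp5: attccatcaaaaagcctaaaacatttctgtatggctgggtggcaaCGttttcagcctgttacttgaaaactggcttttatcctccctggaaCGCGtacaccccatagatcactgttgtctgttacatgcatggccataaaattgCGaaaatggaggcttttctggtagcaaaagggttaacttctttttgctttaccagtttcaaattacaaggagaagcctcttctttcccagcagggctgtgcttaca
Bmp10: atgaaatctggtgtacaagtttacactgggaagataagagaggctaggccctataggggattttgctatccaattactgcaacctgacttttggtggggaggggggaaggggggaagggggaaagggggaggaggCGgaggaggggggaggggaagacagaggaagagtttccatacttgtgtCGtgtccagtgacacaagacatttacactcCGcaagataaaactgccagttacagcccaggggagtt

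The 250 bases of Acvr2a held 49 CG dinucleotides, those of Grem1 24 and those of Bmp6 22. Nodal held 3, Bmp5 4 and Bmp10 3. The median over the 32851 promoters of the RefSeq table was 6. Promoter entries at the start site concerned were matched for 25 of the 39 genes (for Gdf15, with a pair of entries of 1 and 6, the higher was kept), with a median of 20 CG dinucleotides. Among genes with more H3K4me3 than H3K27me3 in E14 cells (defined below) the 11 matched promoters held 3 to 49, with a median of 21, and among the others the 12 matched promoters held 3 to 35, with a median of 20.5. The counts of both groups overlapped over most of their range. Inhba, an activin subunit gene with a mean E14 reChIP enrichment of 2.78 (the log2 difference from IgG–IgG defined below), held 3, as many as Nodal and Bmp10.

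Nearly all of these promoters were covered by a reChIP region in E14 cells. A region was listed for 37 of 39 genes in both E14 reChIP tables, with the same coordinates in either orientation, whereas 58.5% of all genes had one. Of the 24540 E14 K4-K27 regions, 21857 have identical coordinates in K27-K4, so this is not read as agreement between orientations. How the regions were called and merged is not fully known. The paper called far fewer shared regions, so a listed region is a looser criterion than its bivalent class. The exceptions were Bmp5 and Bmp10, the latter a ligand of the developing heart, and neither had a region in any of the 12 tables. The in-line totals were listed less completely. Total H3K4me3 regions covered 27 of 39 promoters (53.2% of all genes) and total H3K27me3 regions 12 of 39 (12.1%). The paper reports noisier signal and few called peaks for its in-line totals, likely from their low starting material. An unlisted region therefore does not show that a mark is absent, and the same limit holds for the comparisons with totals below. By role, total H3K4me3 was listed at 18 of 25 ligand, 3 of 7 antagonist and 5 of 6 receptor promoters, and total H3K27me3 at 8 of 25, 2 of 7 and 1 of 6. Bmpr1b was the receptor with an H3K27me3 region and without an H3K4me3 region. Differences between roles were not tested.

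In the clones, K4-K27 regions covered 34 of 39 promoters in WT and 34 in DKO tables, beside 59.4% and 57.8% of all genes, and K27-K4 regions 30 in each, beside 33.7% and 32.1%. Total H3K4me3 regions covered 34 in WT and 31 in DKO tables (60.2% and 56.1% of all genes), and total H3K27me3 regions 21 and 22 (15.8% and 17.6%). Gdf2 and Gdf5, ligands of endothelium and of joints, had regions in E14 tables alone. Bmp3 had a region in the WT tables of both reChIPs and of total H3K4me3, and in no DKO table. The promoters without a K27-K4 region in WT clones were, beside those of Bmp5, Bmp10, Gdf2 and Gdf5, those of Gdf3, Gdf9, Gdf15, Nodal and Bmpr1a, and all of the latter 5 had more H3K4me3 than H3K27me3 in E14 cells. Of the 15 promoters with more H3K4me3 in E14 cells, 3 had a total H3K27me3 region in WT clones and 4 in DKO clones, whereas of the other 22 with an E14 region 18 had one in each. This difference between the groups was not tested. Some regions also hold the start of another gene, among them Cers1 with Gdf1, Ift43 with Tgfb3, Obsl1 with Inha, Thpo with Chrd, Upp2 with Acvr1, Lgi3 and Sftpc with Bmp1, and Gm15222 with Bmp4. The region kept for Gdf9, an oocyte factor, covers the start of Uqcrq and not that of Gdf9 itself, so its values are read as those of that neighbouring promoter. Gdf1 has a pair of start sites in different regions, and its K27-K4 and total H3K4me3 regions in WT clones lie at the other start site than its E14 region.

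Values were log2 RPM per kb (reads scaled to library size and region length), and enrichment is the log2 difference from IgG–IgG at the same region, that of E14 cells for E14 libraries and that of WT clone 57 for all clones. Pairs of values are given for E14 replicates 1 and 2 in that order. Enrichment was at least 1 in all 4 E14 reChIP libraries at 29 of 37 promoters, beside 44.7% of all genes with such a region. The highest mean enrichments were 3.75 at Fst, whose product binds activins, 3.54 at Bmp2, 3.53 at Bmp6, 3.43 at the activin receptor gene Acvr2a and 3.34 at Grem1. The lowest were 0.49 at Gdf3, 0.63 at Gdf15, 0.85 at the region kept for Gdf9 and 1.29 at Nodal. The E14 IgG–IgG library held 14 reads at Acvr2a, and with IgG–IgG of WT clone 57 in its place the mean was 1.78 at Acvr2a, beside 3.26 at Fst, 2.75 at Bmp2, 3.51 at Bmp6, 3.23 at Grem1 and 3.53 at Nog. With the same library Nodal and Gdf3 were the lowest, at -0.40 and -0.34, below IgG–IgG, and Bmp1 went from 2.24 to 3.53, in the chromosome 14 segment where that library reads lower.

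Among ligands, Bmp2, Bmp6 and Bmp8a stood highest over IgG–IgG of E14 cells. Over that of WT clone 57, Bmp7 at 3.18 and Gdf6 at 3.14 were among the ligands above Bmp2 at 2.75. Bmp2 (chr2:133550251-133556250) read 2.25 and 2.69 in K4-K27, 2.12 and 4.03 in K27-K4, -0.04 and 0.17 in total H3K4me3 and -0.23 and 0.04 in total H3K27me3, beside -0.77 in IgG–IgG. Bmp6 (chr13:38343601-38350500) read 2.72 and 3.10 in K4-K27, 2.70 and 4.37 in K27-K4, 0.36 and 0.42 in total H3K4me3 and 0.24 and 0.28 in total H3K27me3, beside -0.31 in IgG–IgG. Bmp8a (chr4:123340051-123345150) read 2.14 and 2.81 in K4-K27, 2.25 and 4.05 in K27-K4, 0.80 and 0.99 in total H3K4me3 and 0.30 and -0.12 in total H3K27me3, beside -0.36 in IgG–IgG. At each of them all 4 reChIP libraries lay above all 4 in-line totals, and K27-K4 of replicate 2 was the highest library. Bmp2 is a ligand of early mesoderm and heart, and Bmp8a belongs to a gene pair known for its role in germ cells. Its partner Bmp8b, at chr4:123102601-123109800, had a mean enrichment of 2.56. Bmp7, a ligand of kidney and eye, reached 2.82 and Bmp3 3.12. Among the GDF genes without an H3K4me3 excess, Gdf5, Gdf6 and Gdf7 of limb and joint had 2.22, 3.10 and 2.88, Gdf10 had 2.53 and Gdf11, which acts in axial patterning, 2.85. Tgfb1, Tgfb2 and Tgfb3, the TGF-beta ligands proper, had 2.62, 3.12 and 2.27.

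Among antagonists, Fst, Grem1 and Nog stood highest. Fst (chr13:114453751-114462300) read 2.15 and 2.83 in K4-K27, 2.44 and 3.79 in K27-K4, 0.43 and 0.38 in total H3K4me3 and 0.33 and 0.09 in total H3K27me3, beside -0.95 in IgG–IgG. Grem1 (chr2:113755351-113761050) read 2.27 and 2.64 in K4-K27, 2.28 and 3.73 in K27-K4, -0.08 and -0.01 in total H3K4me3 and 0.39 and 0.41 in total H3K27me3, beside -0.61 in IgG–IgG. Nog (chr11:89293501-89304900) read 2.36 and 2.89 in K4-K27, 2.55 and 4.06 in K27-K4, 0.33 and 0.38 in total H3K4me3 and 0.51 and 0.37 in total H3K27me3, beside 0.03 in IgG–IgG. Here too no in-line total reached a reChIP value. Grem1 and Nog encode secreted BMP antagonists of limb and neural development. Chrd, which encodes the BMP-binding Chordin, had a mean enrichment of 2.17, Inha, the inhibin subunit gene, 2.18, and the Nodal inhibitor genes Lefty1 and Lefty2 1.48 and 1.46.

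Mean E14 reChIP enrichment of the 6 receptors ranged from 1.87 to 3.43. Acvr2a (chr2:48812401-48816900) read 0.94 and 2.05 in K4-K27, 1.79 and 2.92 in K27-K4, 0.46 and 0.66 in total H3K4me3 and -0.47 and -0.88 in total H3K27me3, beside -1.503 in IgG–IgG. Bmpr2 (chr1:59761951-59765400) read 1.19 and 2.62 in K4-K27, 2.19 and 3.41 in K27-K4, 1.43 and 1.68 in total H3K4me3 and -0.88 and -1.78 in total H3K27me3, beside -0.61 in IgG–IgG. Bmpr1b (chr3:142163551-142173000) read 1.43 and 1.51 in K4-K27, 1.45 and 2.37 in K27-K4, -0.51 and -0.59 in total H3K4me3 and 0.08 and 0.43 in total H3K27me3, beside -0.80 in IgG–IgG. Acvr2a and Bmpr2, which encode type II receptors, carried total H3K4me3 well above total H3K27me3, and Bmpr1b, a type I receptor gene of cartilage and limb, the reverse. Bmp1 (chr14:70515751-70535100) read 1.75 and 1.87 in K4-K27, 1.55 and 2.94 in K27-K4, 0.22 and -0.16 in total H3K4me3 and 0.43 and 0.55 in total H3K27me3, beside -0.22 in IgG–IgG. Bmp1 encodes a metalloprotease that cleaves procollagen and Chordin, and its region, 19350 bp wide, was the second widest of the set after that of Gdf6 at 20550 bp.

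**Figure D1:**
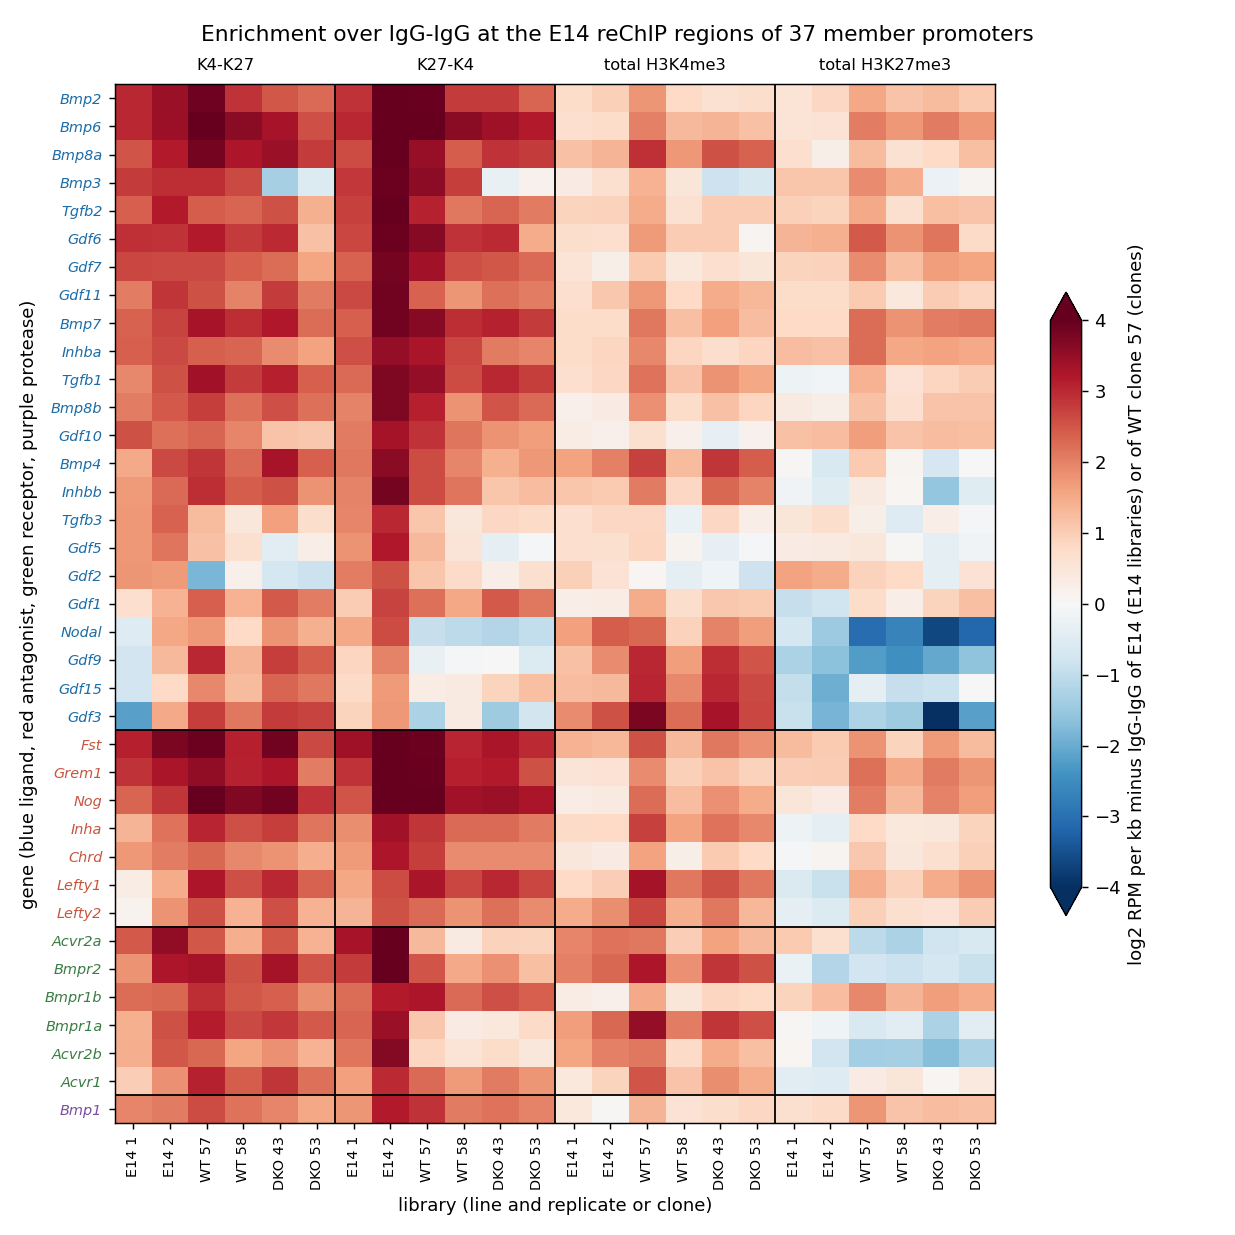
Heat map of enrichment (log2 RPM per kb minus IgG–IgG) at the E14 reChIP regions of 37 promoters (rows, by role and then by mean E14 reChIP enrichment) in 24 libraries (columns, grouped by ChIP), with values beyond 4 in either direction at the end colours. Bmp3 is enriched in both reChIPs of E14 cells and WT clones and lies between -1.33 and 0.16 in those of DKO clones, and Gdf3, Gdf9, Gdf15 and Nodal are low in total H3K27me3.

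Signal after the second round of ChIP was then compared with that after the first. The 4 E14 reChIP libraries were tested against the 4 in-line totals with limma over 21857 regions shared by both orientations, and calls needed a difference of more than 1 (up or down, log2) together with a Benjamini-Hochberg adjusted p under 0.05. Higher reChIP signal was called at 26 of 37 promoters, beside 29.3% of regions and 36.7% of gene promoters, and lower signal at 0 of 37 by limma, since all 37 differences were above 0. The median difference was 1.93 over the set, 1.41 over all genes and 1.18 over all regions. By role, 17 of 23 ligands, 5 of 7 antagonists, 3 of 6 receptors and Bmp1 were called. Bmp6 differed by 2.90 (SE 0.39, adjusted p = 0.00357), Bmp2 by 2.79 (SE 0.43, adjusted p = 0.00357), Nog by 2.57 (SE 0.38, adjusted p = 0.00357), Grem1 by 2.55 (SE 0.38, adjusted p = 0.00357) and Fst by 2.49 (SE 0.37, adjusted p = 0.00357). The promoters not called were those of Bmp4, Gdf2, Gdf3, Gdf9, Gdf15, Nodal, Lefty1, Lefty2, Bmpr1a, Bmpr2 and Acvr2b. Gdf3, a ligand gene expressed in pluripotent cells, differed by 0.07 (SE 1.18, adjusted p = 0.959) and Nodal by 0.81 (SE 0.97, adjusted p = 0.472), while Bmpr2 reached 2.24 (SE 0.81, adjusted p = 0.0658). These regions had been called in the reChIPs, which favours a difference in this direction. The 4 libraries of each side came from 2 replicates and 2 ChIPs, with no term for either, so they are not 4 independent samples. Where the totals of both marks differ, as at Gdf3 and Nodal, that difference widens the SE and makes a call harder. With each library centred on its median, which moved the median of all regions to 0.04, 7 promoters were called (Bmp2, Bmp6, Bmp8a, Tgfb1, Tgfb2, Nog and Fst), beside 5.03% of regions. Leaving out 1 library at a time gave 20 called promoters (without total H3K27me3 of replicate 1, beside 18.5% of regions) to 31 (without total H3K4me3 of replicate 2, beside 36.6%), and Bmp6, Bmp2, Nog, Grem1 and Fst were called each time. Bmpr2 was called without either total H3K4me3 library or without K4-K27 of replicate 1.

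The balance of both marks in E14 cells ranged widely over the set. Total H3K4me3 was tested against total H3K27me3, 2 libraries each, over the 36235 regions of the K27-K4 table. H3K4me3 was higher at 15 of 37 promoters, beside 40.2% of regions and 63.6% of gene promoters, and lower at 0 of 37 by limma, beside 5.43% and 0.953%. At an unadjusted p under 0.05, 26 of 37 promoters differed in one direction or the other, beside 78.3% of gene promoters. The median difference was 0.31 over the set and 1.94 over all genes. By role the median was 0.16 over 23 ligands, 0.37 over 7 antagonists and 1.64 over 6 receptors. Higher H3K4me3 was called at 7 ligand, 3 antagonist and 5 receptor promoters. With each library centred on its median, which moved the median of all regions from 0.61 to -0.11, the split was 9 higher and 9 lower, the latter at Bmp3, Gdf2, Gdf6, Gdf7, Gdf10, Inhba, Grem1, Bmpr1b and Bmp1, beside 28.8% of regions higher and 23.3% lower, and the median of the set was -0.41. The calls of Gdf1, Inhbb, Lefty1, Inha, Acvr1 and Acvr2a were lost with that centring.

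The ligands with more H3K4me3 were led by Gdf3 and Nodal. Gdf3 (chr6:122607901-122610300) read 1.07 and 1.74 in total H3K4me3 and -1.71 and -2.67 in total H3K27me3, a difference of 3.60 (SE 0.41, adjusted p = 3.7e-05). Its H3K27me3 values rest on 9 and 12 reads. Nodal (chr10:61417501-61421700) read 1.25 and 2.01 in total H3K4me3 and -1.11 and -1.85 in total H3K27me3, a difference of 3.11 (SE 0.32, adjusted p = 2.28e-05). Nodal is the ligand of mesendoderm and of the left-right axis. Gdf15 (chr8:70629151-70633950) read 1.13 and 1.18 in total H3K4me3 and -1.08 and -2.09 in total H3K27me3, and Gdf15, a hormone of the stress response, differed by 2.74. Gdf9 (chr11:53428201-53432100) read 1.11 and 1.82 in total H3K4me3 and -1.34 and -1.71 in total H3K27me3, at the promoter of Uqcrq, with a difference of 2.99. At these 4 promoters the H3K27me3 values were also below IgG–IgG, which read -0.82, -0.40, -0.12 and -0.06 in the order given. Bmp4 (chr14:46384051-46392000) read 0.88 and 1.29 in total H3K4me3 and -0.70 and -1.35 in total H3K27me3, and differed by 2.11. Bmp4, the ligand needed for mesoderm and germ cells, was called, and Bmp2, its close relative, was not, with a difference of 0.16 (SE 0.26, adjusted p = 0.631). Inhbb (chr1:119415751-119424900) read 0.995 and 0.95 in total H3K4me3 and -0.24 and -0.59 in total H3K27me3, and Gdf1 (chr8:70313551-70319550) read 0.56 and 0.59 in total H3K4me3 and -0.62 and -0.51 in total H3K27me3. Inhbb encodes an activin subunit and differed by 1.39, and Gdf1, a partner of Nodal, by 1.14.

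The antagonists with more H3K4me3 were both Lefty genes and Inha. Lefty2 (chr1:180891601-180895950) read 0.80 and 1.18 in total H3K4me3 and -1.04 and -1.23 in total H3K27me3, a difference of 2.13 (SE 0.28, adjusted p = 8.39e-05). Lefty1 (chr1:180932851-180939000) read 0.83 and 1.04 in total H3K4me3 and -0.54 and -0.86 in total H3K27me3, a difference of 1.63 (SE 0.22, adjusted p = 0.000107). Inha (chr1:75501001-75511800) read 0.70 and 0.75 in total H3K4me3 and -0.25 and -0.40 in total H3K27me3, a difference of 1.05 (SE 0.19, adjusted p = 0.000726). At each of them both H3K4me3 libraries lay above both H3K27me3 libraries. Inha was short of the fold threshold without total H3K27me3 of replicate 2, at 0.97. Nog, Chrd, Fst and Grem1 were not called, with differences of -0.09, 0.37, 0.20 and -0.45.

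Receptor promoters leaned to H3K4me3, apart from Bmpr1b. Bmpr2 differed by 2.89 (SE 0.29, adjusted p = 2.15e-05) and Acvr2a by 1.23 (SE 0.28, adjusted p = 0.00321). Acvr2b (chr9:119400301-119406750) read 0.86 and 1.32 in total H3K4me3 and -0.61 and -1.45 in total H3K27me3, a difference of 2.12 (SE 0.31, adjusted p = 0.000186). Bmpr1a (chr14:34499701-34504650) read 0.63 and 1.24 in total H3K4me3 and -1.02 and -1.21 in total H3K27me3, a difference of 2.05 (SE 0.30, adjusted p = 0.000182). Acvr1 (chr2:58563751-58569150) read 0.30 and 0.79 in total H3K4me3 and -0.56 and -0.63 in total H3K27me3, a difference of 1.14 (SE 0.27, adjusted p = 0.00472). Bmpr1a and Acvr1 encode type I receptors that most cells carry. Acvr1 was short of the fold threshold without total H3K4me3 of replicate 2, at 0.89. Bmpr1b lay at -0.81 (SE 0.29, adjusted p = 0.0361), past the adjusted p threshold and short of the fold threshold. Among ligands, Gdf10 at -0.96 (SE 0.20, adjusted p = 0.00214), Gdf2 at -0.78 (SE 0.29, adjusted p = 0.042), Gdf6 at -0.69 (SE 0.19, adjusted p = 0.00918), Bmp3 at -0.64 (SE 0.24, adjusted p = 0.0444) and Gdf7 at -0.51 (SE 0.18, adjusted p = 0.0309) met the adjusted p alone on the side of H3K27me3. Gdf6 and Gdf7 are relatives of Gdf5 with roles in joints, limb and neural tube, and Gdf10 is the closest relative of Bmp3.

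**Figure D2:**
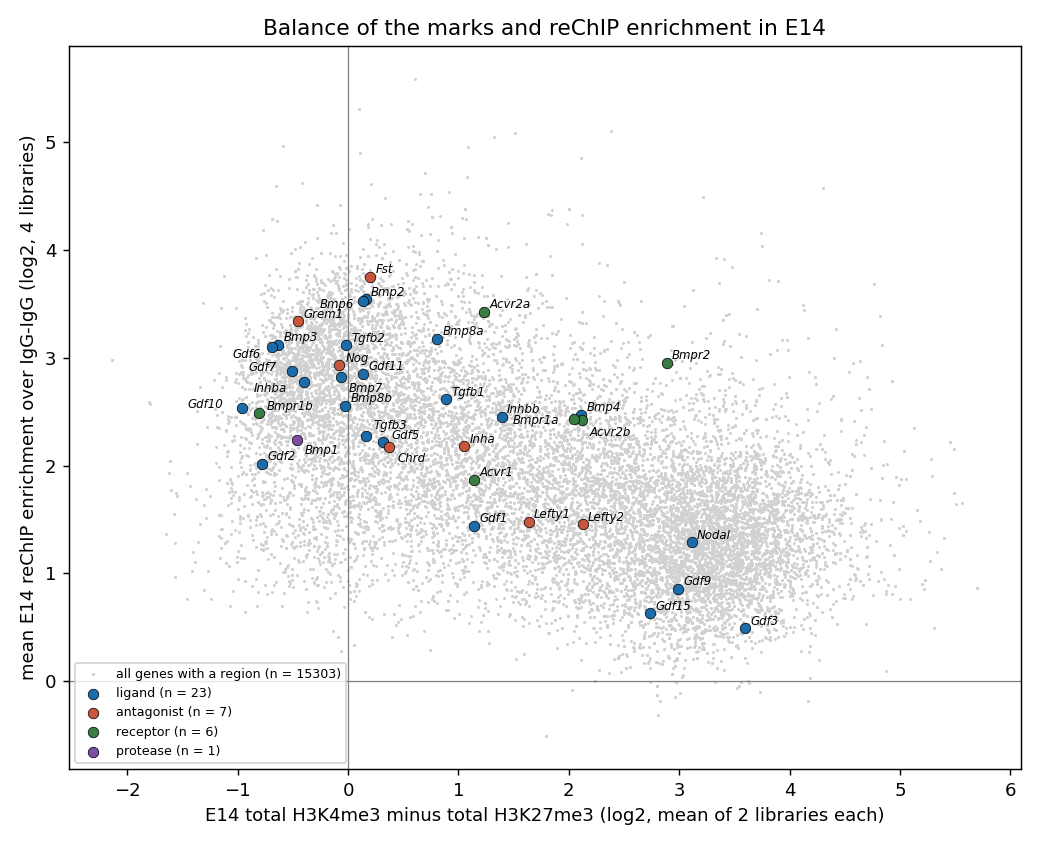
Scatter plot of E14 total H3K4me3 minus total H3K27me3 (x axis, log2) against mean E14 reChIP enrichment over IgG–IgG (y axis, log2) for 37 promoters coloured by role, over 15303 genes with a shared region in grey. Gdf3, Nodal, Gdf9 and Gdf15 lie at the lower right, Fst, Bmp2, Bmp6 and Grem1 at the top near a balance of 0, and Bmpr2 to the right of the other receptors.

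The same balance was measured in WT clones, over the 31231 regions of their K27-K4 table, which held 30 of the promoters. H3K4me3 was higher at Bmp4, Bmpr2, Acvr2a and Acvr2b, 4 of 30 beside 11.3% of regions and 35.3% of gene promoters, and lower at 0 of 30 by limma, beside 12.4% and 1.12%. At an unadjusted p under 0.05, 6 of 30 promoters differed, beside 44.6% of gene promoters. Acvr2a differed by 3.87 (SE 0.62, adjusted p = 1.94e-08), with 3.14 and 1.79 in total H3K4me3 and -1.37 and -1.43 in total H3K27me3 of clones 57 and 58. Bmpr2 differed by 3.38 (SE 0.80, adjusted p = 0.000358), with 3.75 and 2.32 against -0.28 and -0.40. Acvr2b differed by 3.26 (SE 0.84, adjusted p = 0.00121), with 3.92 and 2.47 against -0.03 and -0.10. All 3 encode type II receptors. Bmp4 differed by 1.62 (SE 0.62, adjusted p = 0.0403), with 2.09 and 0.54 against 0.26 and -0.86, and its H3K4me3 in clone 58 came close to its H3K27me3 in clone 57. These regions had been called in the K27-K4 reChIP. With the clone as a replicate block, 10 promoters were called, beside 15.8% of regions higher and 14.2% lower, among them Lefty1, Lefty2, Inha and Acvr1, and Bmp4 was not called without total H3K4me3 of clone 57. Without total H3K4me3 of clone 58 there were 11, beside 17.6% and 24.9% of regions, and without total H3K27me3 of clone 57 or clone 58 there were 0 by limma, with 2 and 1 at an unadjusted p under 0.05.

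Medians by role were then set side by side across cells. Over the 7 antagonist promoters, the median K27-K4 enrichment was 1.86 and 3.35 in E14 replicates 1 and 2, 3.26 and 2.67 in WT clones 57 and 58 and 3.03 and 2.54 in DKO clones 43 and 53. Over the 6 receptor promoters it was 2.28 and 3.56, 1.78 and 1.03 and 1.38 and 1.04, and over the 23 ligand promoters 2.12 and 3.72, 2.88 and 2.10 and 2.08 and 1.75. All genes with a region had 1.15 and 0.85 in WT and 0.93 and 0.98 in DKO clones, below the receptors in each clone. In the clones the receptor medians lay below the antagonist medians in every library. In E14 cells the order depended on the IgG–IgG library, since with that of WT clone 57 the receptor medians became 1.76 and 2.95 and the antagonist medians 2.48 and 3.62. The median total H3K27me3 enrichment of the receptors was -0.69 and -0.66 in WT and -0.75 and -0.52 in DKO clones, below IgG–IgG, while that of the antagonists was 1.45 and 0.88 and 1.499 and 1.28. K4-K27 medians of the receptors were 3.02 and 2.46 in WT and 2.65 and 2.02 in DKO clones, beside those of all genes with a region at 2.66 and 2.05 and 2.56 and 1.94. These are levels of single libraries set against 1 IgG–IgG library per cell origin, and they were not tested. The clone values of single genes show what lies behind the medians. At its E14 region Acvr2a read 2.63 and 1.61 in K4-K27, 1.44 and 0.51 in K27-K4, 2.25 and 1.12 in total H3K4me3 and -0.91 and -1.13 in total H3K27me3 in WT clones 57 and 58, and 2.62 and 1.53, 1.07 and 1.02, 1.75 and 1.43 and -0.66 and -0.47 in DKO clones 43 and 53. By contrast, Nog read 3.69 and 3.15 in K4-K27, 3.68 and 2.81 in K27-K4, 1.69 and 0.67 in total H3K4me3 and 1.47 and 0.74 in total H3K27me3 in WT clones 57 and 58, and 3.31 and 2.33, 2.88 and 2.72, 1.26 and 0.92 and 1.42 and 1.10 in DKO clones 43 and 53. K27-K4 and total H3K27me3 per kb were lower at Acvr2a than at Nog in each of the 4 clones.

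**Figure D3:**
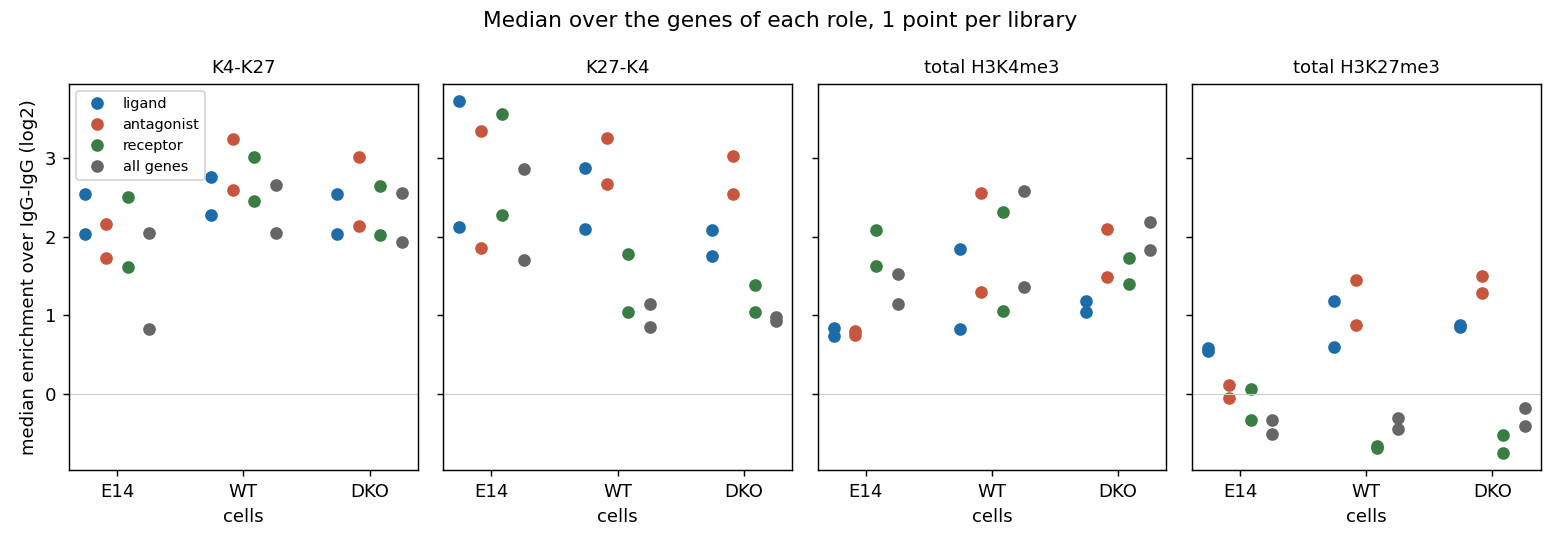
Median enrichment over IgG–IgG (y axis, log2) over 23 ligand, 7 antagonist and 6 receptor promoters and over 15303 genes, in 4 panels by ChIP, with 1 point per library for E14 cells, WT clones and DKO clones. Receptor points lie below antagonist points in K27-K4 and total H3K27me3 of the clones.

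The promoters with more H3K4me3 in E14 cells were also followed in the reChIPs and in the clones, at their E14 regions. Gdf3 read -2.99 and 0.71 in K4-K27 of E14 cells and 0.07 and 0.90 in their K27-K4, beside -0.82 in IgG–IgG. In the clones, Gdf3 read 2.77 and 2.11 in K4-K27, -1.25 and 0.37 in K27-K4, 3.76 and 2.25 in total H3K4me3 and -1.22 and -1.42 in total H3K27me3 in WT clones 57 and 58, and 2.81 and 2.70, -1.41 and -0.72, 3.32 and 2.67 and -4.46 and -2.17 in DKO clones 43 and 53. K4-K27 of E14 replicate 1 was below IgG–IgG at Gdf3, and in each of the 4 clones K4-K27 and total H3K4me3 lay above K27-K4 and total H3K27me3. The lowest values of Gdf3 lie near the floor, with 3 reads in K4-K27 of E14 replicate 1 and 2 in total H3K27me3 of DKO clone 43. Nodal read -0.92 and 1.14 in K4-K27 of E14 cells and 1.13 and 2.20 in their K27-K4, beside -0.40 in IgG–IgG. In the clones, Nodal read 3.04 and 2.09 in K4-K27, 0.37 and 0.25 in K27-K4, 3.59 and 2.22 in total H3K4me3 and -1.75 and -1.39 in total H3K27me3 in WT clones 57 and 58, and 3.07 and 2.70, 0.11 and 0.29, 3.27 and 2.96 and -2.36 and -1.87 in DKO clones 43 and 53. The order was the same at Nodal, with K4-K27 and total H3K4me3 above K27-K4 and total H3K27me3 in each clone. Gdf15 read -0.88 and 0.69 in K4-K27 of E14 cells and 0.66 and 1.57 in their K27-K4, beside -0.12 in IgG–IgG. In the clones, Gdf15 read 1.74 and 1.10 in K4-K27, 0.13 and 0.18 in K27-K4, 2.85 and 1.73 in total H3K4me3 and -0.58 and -1.10 in total H3K27me3 in WT clones 57 and 58, and 2.15 and 1.93, 0.71 and 1.02, 2.83 and 2.46 and -1.03 and -0.20 in DKO clones 43 and 53. Gdf15 had its lowest values in total H3K27me3, in both E14 replicates as in each clone. Gdf9 read -0.82 and 1.25 in K4-K27 of E14 cells and 0.81 and 1.93 in their K27-K4, beside -0.06 in IgG–IgG. In the clones, Gdf9 read 2.98 and 1.34 in K4-K27, -0.34 and -0.10 in K27-K4, 3.00 and 1.65 in total H3K4me3 and -2.26 and -2.47 in total H3K27me3 in WT clones 57 and 58, and 2.73 and 2.39, 0.0002 and -0.57, 2.92 and 2.48 and -2.07 and -1.65 in DKO clones 43 and 53. These are values of the Uqcrq promoter, as said above.

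The other ligands of this group were Bmp4, Inhbb and Gdf1. Bmp4 read 0.76 and 1.89 in K4-K27 of E14 cells and 1.39 and 2.89 in their K27-K4, beside -0.74 in IgG–IgG. In the clones, Bmp4 read 1.65 and 1.05 in K4-K27, 1.39 and 0.74 in K27-K4, 1.53 and 0.03 in total H3K4me3 and -0.18 and -1.12 in total H3K27me3 in WT clones 57 and 58, and 2.07 and 1.17, 0.20 and 0.53, 1.66 and 1.20 and -1.90 and -1.23 in DKO clones 43 and 53. All clone values of Bmp4 carry the lower level of its segment of chromosome 14. Inhbb read 1.61 and 2.16 in K4-K27 of E14 cells and 1.88 and 3.73 in their K27-K4, beside -0.11 in IgG–IgG. In the clones, Inhbb read 3.54 and 2.99 in K4-K27, 3.20 and 2.73 in K27-K4, 2.65 and 1.40 in total H3K4me3 and 0.96 and 0.67 in total H3K27me3 in WT clones 57 and 58, and 3.13 and 2.37, 1.68 and 1.82, 2.86 and 2.56 and -0.96 and 0.11 in DKO clones 43 and 53. At Inhbb both reChIPs lay above both totals in WT clones, and K27-K4 lay below total H3K4me3 in DKO clones. Gdf1 read 0.97 and 1.67 in K4-K27 of E14 cells and 1.32 and 2.99 in their K27-K4, beside 0.30 in IgG–IgG. In the clones, Gdf1 read 2.45 and 1.42 in K4-K27, 2.24 and 1.59 in K27-K4, 1.52 and 0.73 in total H3K4me3 and 0.78 and 0.32 in total H3K27me3 in WT clones 57 and 58, and 2.50 and 2.07, 2.49 and 2.15, 1.12 and 1.08 and 0.94 and 1.23 in DKO clones 43 and 53. The E14 region of Gdf1 also holds the start of Cers1.

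The antagonists of this group were both Lefty genes, which lie close together on chromosome 1, and Inha. Lefty1 read 0.35 and 1.52 in K4-K27 of E14 cells and 1.58 and 2.65 in their K27-K4, beside 0.05 in IgG–IgG. In the clones, Lefty1 read 2.34 and 1.66 in K4-K27, 2.35 and 1.77 in K27-K4, 2.43 and 1.21 in total H3K4me3 and 0.55 and 0.02 in total H3K27me3 in WT clones 57 and 58, and 2.12 and 1.46, 2.13 and 1.75, 1.66 and 1.19 and 0.60 and 0.89 in DKO clones 43 and 53. Lefty2 read -0.53 and 1.11 in K4-K27 of E14 cells and 0.68 and 1.86 in their K27-K4, beside -0.68 in IgG–IgG. In the clones, Lefty2 read 2.19 and 1.06 in K4-K27, 1.93 and 1.46 in K27-K4, 2.32 and 1.09 in total H3K4me3 and 0.59 and 0.29 in total H3K27me3 in WT clones 57 and 58, and 2.22 and 1.04, 1.86 and 1.56, 1.75 and 0.99 and 0.22 and 0.66 in DKO clones 43 and 53. Their total H3K27me3 lay below total H3K4me3 in each clone. Inha read 1.30 and 2.11 in K4-K27 of E14 cells and 1.81 and 3.30 in their K27-K4, beside -0.05 in IgG–IgG. In the clones, Inha read 2.74 and 2.27 in K4-K27, 2.55 and 1.95 in K27-K4, 2.42 and 1.30 in total H3K4me3 and 0.48 and 0.10 in total H3K27me3 in WT clones 57 and 58, and 2.45 and 1.82, 1.94 and 1.77, 1.85 and 1.60 and 0.12 and 0.57 in DKO clones 43 and 53. Inha encodes the subunit that turns an activin into an inhibin. Of the receptors, Bmpr1a read 0.36 and 1.49 in K4-K27 of E14 cells and 1.26 and 2.40 in their K27-K4, beside -1.06 in IgG–IgG. In the clones, Bmpr1a read 2.59 and 2.10 in K4-K27, 0.54 and -0.19 in K27-K4, 2.98 and 1.51 in total H3K4me3 and -1.15 and -0.99 in total H3K27me3 in WT clones 57 and 58, and 2.29 and 1.93, -0.10 and 0.22, 2.32 and 2.05 and -1.80 and -0.96 in DKO clones 43 and 53. Bmpr1a had the lowest total H3K27me3 per kb of the 6 receptors in 3 of the 4 clones. In enrichment over IgG–IgG, Acvr2b was the lowest in each clone, at -1.36 and -1.32 in WT and -1.72 and -1.25 in DKO clones. Acvr1 read 0.87 and 1.73 in K4-K27 of E14 cells and 1.54 and 2.88 in their K27-K4, beside -0.11 in IgG–IgG. In the clones, Acvr1 read 2.83 and 2.18 in K4-K27, 2.01 and 1.45 in K27-K4, 2.26 and 0.90 in total H3K4me3 and 0.09 and 0.23 in total H3K27me3 in WT clones 57 and 58, and 2.61 and 1.95, 1.85 and 1.52, 1.61 and 1.25 and -0.17 and 0.15 in DKO clones 43 and 53. Acvr2b read 0.74 and 1.77 in K4-K27 of E14 cells and 1.44 and 2.96 in their K27-K4, beside -0.70 in IgG–IgG. In the clones, Acvr2b read 3.15 and 2.42 in K4-K27, 1.72 and 1.41 in K27-K4, 2.98 and 1.64 in total H3K4me3 and -0.50 and -0.46 in total H3K27me3 in WT clones 57 and 58, and 2.68 and 2.25, 1.58 and 1.32, 2.36 and 2.07 and -0.86 and -0.40 in DKO clones 43 and 53. Acvr1 and Acvr2b had total H3K4me3 above total H3K27me3 in each clone.

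Loss of Dppa2 and Dppa4 was tested in each ChIP as DKO against WT, 2 clones each, over all regions of the WT and DKO tables. Of the set, Bmp3 alone was called, lower in K4-K27 (1 of 35 promoters), in K27-K4 (1 of 32) and in total H3K4me3 (1 of 34). The background of lower calls was 1.19% of regions and 2.05% of gene promoters in K4-K27, 2.24% and 5.29% in K27-K4, and 2.47% and 2.62% in total H3K4me3, so a single call is near or below the share of promoters at large. Higher calls numbered 0 in the set by limma in each ChIP, beside 0.00557%, 0.027% and 0.254% of regions. In total H3K27me3, 0 of 23 promoters were called by limma and 0 had an unadjusted p under 0.05, beside 1.78% of regions lower and 0.976% higher. The DKO minus WT differences of the set had a median of -0.42 in K4-K27, -0.40 in K27-K4, -0.11 in total H3K4me3 and 0.10 in total H3K27me3, where those of all gene promoters were -0.10, -0.20, 0.06 and 0.07. Leaving out 1 library moved the medians of the set from -0.77 (without DKO clone 43) to 0.02 (without DKO clone 53) in K4-K27 and, without WT clone 58 or WT clone 57, to -0.83 or -0.01 in K27-K4, -0.84 or 0.56 in total H3K4me3 and -0.31 or 0.40 in total H3K27me3, so no direction is read from them. Without K27-K4 of WT clone 58, 11 promoters were called lower in K27-K4: Bmp2, Bmp3, Bmp4, Bmp6, Gdf6, Gdf7, Gdf10, Inhba, Inhbb, Grem1 and Bmpr2. The same fit called 9.29% of regions lower and 5.28% higher, with a single WT library that is assumed to vary like the DKO clones. With 2 clones per group, a promoter that was not called is not shown to be the same in both genotypes.

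**Figure D4:**
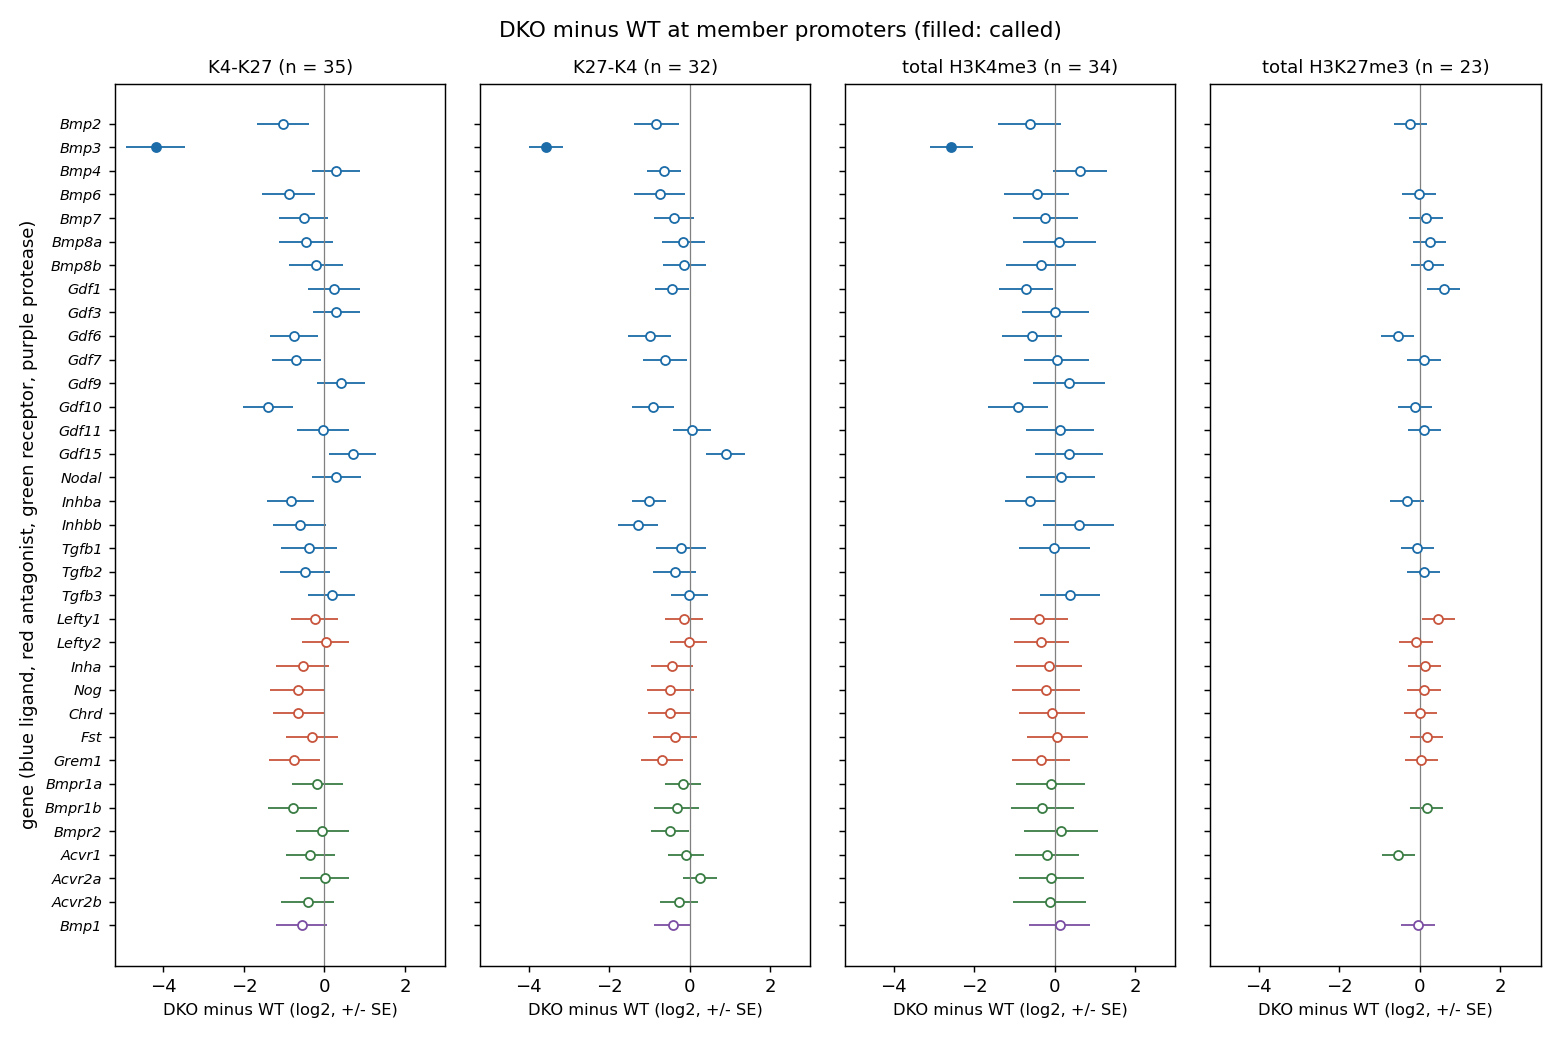
DKO minus WT difference (x axis, log2, with its SE) for each promoter (rows, coloured by role) in K4-K27, K27-K4, total H3K4me3 and total H3K27me3, with filled points for promoters that were called. Bmp3 lies at -4.19, -3.57 and -2.57 in the first 3 panels, and the other promoters between -1.40 and 0.90.

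Bmp3 encodes a BMP that opposes the bone-forming members of the family. Its promoter was lower in DKO than in WT clones in every ChIP. In K4-K27 (chr5:98854201-98856600) it read 3.42 and 3.15 in WT clones 57 and 58 and -1.66 and -0.15 in DKO clones 43 and 53, a difference of -4.19 (SE 0.73, adjusted p = 1.04e-05). In K27-K4 (chr5:98853151-98857050) it read 3.51 and 2.66 in WT clones 57 and 58 and -0.67 and -0.31 in DKO clones 43 and 53, a difference of -3.57 (SE 0.42, adjusted p = 1.34e-09). Total H3K4me3 (chr5:98854351-98856000) read 2.47 and 1.19 in WT clones 57 and 58 and -0.96 and -0.51 in DKO clones 43 and 53, a difference of -2.57 (SE 0.53, adjusted p = 0.000421). In these 3 ChIPs both DKO clones lay below both WT clones. Among the tables of the clones these regions were in those of WT alone, so Bmp3 entered the fits through the group where it is high. At the regions of the E14 tables, which were called without the clones, the differences by limma were -3.73 (SE 0.53, adjusted p = 3.31e-09) in K4-K27, -3.24 (SE 0.36, adjusted p = 1.12e-13) in K27-K4 and -2.73 (SE 0.65, adjusted p = 0.00351) in total H3K4me3. Total H3K27me3 had no Bmp3 region in the tables of the clones. At the region of the E14 total H3K27me3 table (chr5:98852701-98854500) it read 1.36 and 1.10 in WT clones 57 and 58 and -1.04 and -0.26 in DKO clones 43 and 53, and DKO was lower by limma over the 21527 regions of that table, with a difference of -1.88 (SE 0.43, adjusted p = 0.00407). The wider E14 reChIP region (chr5:98852701-98858100) held 717 and 443 K27-K4 reads in WT clones and 72 and 73 in DKO clones, and 271 and 256 against 16 and 34 K4-K27 reads. In E14 cells, Bmp3 (chr5:98852701-98858100) read 2.02 and 2.18 in K4-K27, 2.07 and 3.16 in K27-K4, -0.43 and -0.13 in total H3K4me3 and 0.36 and 0.36 in total H3K27me3, beside -0.77 in IgG–IgG. In both E14 replicates, as in both WT clones, both reChIPs lay above both totals. In DKO clones this region read -1.83 and -1.04 in K4-K27, then -0.81 and -0.34 after the reverse order, beside an IgG–IgG value of -0.50 in WT clone 57. The K4-K27 call was lost without WT clone 57 (difference -4.06, adjusted p = 0.0674), and the total H3K4me3 call without DKO clone 43 (difference -2.35, adjusted p = 1) or DKO clone 53 (difference -2.80, adjusted p = 0.603).

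**Figure D5:**
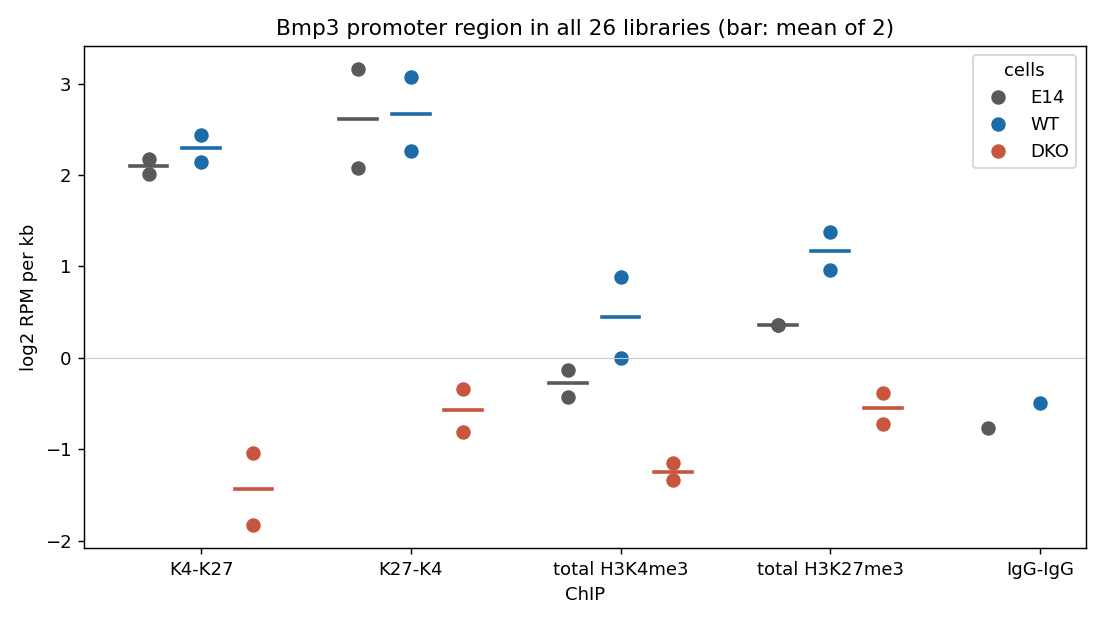
Values of the Bmp3 promoter at its E14 reChIP region (y axis, log2 RPM per kb) in all 26 libraries, by ChIP and by cells, with a point per library and a bar at the mean of 2. DKO points lie below WT points in all 4 ChIPs, and in both reChIPs by over 2 on the log2 scale.

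Apart from Bmp3, an unadjusted p under 0.05 was found at Gdf10 in K4-K27, and at Inhba and Inhbb in K27-K4, beside 6.58% of gene promoters in K4-K27 and 13.5% in K27-K4. These counts are no higher than that background, and the values are given as a description. Gdf10 read 4.01 and 3.40 in WT clones 57 and 58 and 2.47 and 2.15 in DKO clones 43 and 53, a difference of -1.40 (SE 0.62) that failed the adjustment by limma (adjusted p = 0.23), and it was called with each library centred on its median. Inhba read 2.48 and 1.90 in WT clones 57 and 58 and 1.28 and 1.10 in DKO clones 43 and 53, with -0.997 (SE 0.42, adjusted p = 0.19) by limma, and Inhbb 3.50 and 3.02 in WT clones 57 and 58 and 1.92 and 2.06 in DKO clones 43 and 53, with -1.27 (SE 0.50, adjusted p = 0.161). In each of these both DKO clones lay below both WT clones, as they did at 19.2% of all regions in K4-K27 and 30.8% in K27-K4. Inhba and Inhbb encode the subunits that pair into activins. Bmp2 differed by -1.04 (SE 0.65, adjusted p = 0.458) in K4-K27 and -0.83 (SE 0.56, adjusted p = 0.414) in K27-K4, and its total H3K27me3 by -0.23 (SE 0.41, adjusted p = 0.859), all by limma. At its E14 region Bmp2 read 3.91 and 2.91 in K4-K27, 3.99 and 2.83 in K27-K4, 1.80 and 0.83 in total H3K4me3 and 1.59 and 1.15 in total H3K27me3 in WT clones 57 and 58, and 2.52 and 2.28, 2.84 and 2.35, 0.63 and 0.72 and 1.28 and 1.07 in DKO clones 43 and 53. In the same way, Bmp6 read 3.69 and 3.30 in K4-K27, 4.09 and 3.32 in K27-K4, 1.73 and 1.02 in total H3K4me3 and 1.76 and 1.44 in total H3K27me3 in WT clones 57 and 58, and 3.01 and 2.28, 3.11 and 2.88, 1.06 and 0.87 and 1.80 and 1.45 in DKO clones 43 and 53. At both genes the reChIP values stayed above the in-line totals of the same clone in all 4 clones. The calls of Inhba, Inhbb, Bmp2 and Bmp6 in K27-K4 without WT clone 58 rest on a single WT library.

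No antagonist or receptor promoter was called in DKO against WT. At its E14 region Fst read 3.45 and 2.66 in K4-K27, 3.45 and 2.59 in K27-K4, 2.11 and 0.84 in total H3K4me3 and 1.35 and 0.42 in total H3K27me3 in WT clones 57 and 58, and 3.40 and 2.19, 2.80 and 2.53, 1.65 and 1.37 and 1.24 and 0.83 in DKO clones 43 and 53. At the corresponding region, Grem1 read 3.05 and 2.56 in K4-K27, 3.46 and 2.60 in K27-K4, 1.38 and 0.46 in total H3K4me3 and 1.70 and 1.03 in total H3K27me3 in WT clones 57 and 58, and 2.74 and 1.54, 2.67 and 2.04, 0.64 and 0.41 and 1.57 and 1.26 in DKO clones 43 and 53. Differences from WT were -0.35 (SE 0.54, adjusted p = 0.73) at Fst and -0.68 (SE 0.52, adjusted p = 0.465) at Grem1 in K27-K4 by limma, and in neither gene were they past the threshold in any ChIP. Among receptors, Bmpr2 read 3.78 and 2.99 in K4-K27, 2.95 and 1.96 in K27-K4, 3.69 and 2.28 in total H3K4me3 and -0.32 and -0.43 in total H3K27me3 in WT clones 57 and 58, and 3.76 and 2.97, 2.28 and 1.65, 3.29 and 3.00 and -0.25 and -0.46 in DKO clones 43 and 53. The receptor gene Bmpr1b read 2.05 and 1.58 in K4-K27, 2.32 and 1.34 in K27-K4, 0.62 and -0.42 in total H3K4me3 and 1.003 and 0.44 in total H3K27me3 in WT clones 57 and 58, and 1.49 and 0.94, 1.66 and 1.49, -0.06 and -0.11 and 0.75 and 0.56 in DKO clones 43 and 53. At this E14 region its total H3K27me3 lay above total H3K4me3 in each clone. At the K27-K4 regions of WT clones, however, total H3K4me3 was the higher on average at all 5 receptors tested, Bmpr1b included, by 0.48 or more. Bmpr2 differed in K27-K4 by -0.50 (SE 0.47, adjusted p = 0.558) and Bmpr1b by -0.32 (SE 0.55, adjusted p = 0.76) by limma. The calls of Grem1 and Bmpr2 in K27-K4 without WT clone 58 rest on WT clone 57 alone. Receptor differences ranged from -0.79 to 0.01 in K4-K27 and from -0.50 to 0.25 in K27-K4. The germ cell ligand gene Bmp8a read 3.47 and 2.90 in K4-K27, 3.15 and 2.09 in K27-K4, 2.60 and 1.41 in total H3K4me3 and 0.93 and 0.26 in total H3K27me3 in WT clones 57 and 58, and 3.11 and 2.47, 2.54 and 2.44, 2.21 and 2.03 and 0.47 and 0.86 in DKO clones 43 and 53. The protease gene Bmp1 read 1.10 and 0.68 in K4-K27, 1.40 and 0.56 in K27-K4, -0.14 and -0.93 in total H3K4me3 and 0.28 and -0.37 in total H3K27me3 in WT clones 57 and 58, and 0.45 and 0.05, 0.66 and 0.48, -0.79 and -0.67 and -0.27 and -0.33 in DKO clones 43 and 53. Neither Bmp8a nor Bmp1 was called in any ChIP, and DKO and WT values at the E14 regions overlapped in all 4 ChIPs at Bmp8a and in all but K4-K27 at Bmp1.

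Gdf2 and Gdf5, which had no region in the tables of the clones, were read at their E14 regions. In K27-K4, Gdf5 (chr2:155939401-155946150) read 1.01 and 0.25 in WT clones 57 and 58 and -0.63 and -0.36 in DKO clones 43 and 53, with a difference of -1.13 (SE 0.41, adjusted p = 0.0807) by limma. Gdf2 (chr14:33940201-33942150) read 0.78 and 0.44 in WT clones 57 and 58 and -0.08 and 0.30 in DKO clones 43 and 53, with a difference of -0.50 (SE 0.36, adjusted p = 0.552) by limma. Mean E14 reChIP enrichments of 2.22 at Gdf5 and 2.02 at Gdf2 compare with 0.91 and 0.06 in WT clones and -0.15 and -0.17 in DKO clones, which for Gdf2 rest on as few as 4 reads in a library. The E14 means use another IgG–IgG library, and with that of WT clone 57 they were 2.06 and 1.06. E14 cells and clones also differ in batch, and the comparison was not tested.

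Whether the DKO minus WT difference depended on the order of the antibodies was tested as an interaction. The clone tables of both orientations share 815 regions, which held 1 of the promoters, Tgfb3, with a difference between orientations of -0.19 (SE 0.77, adjusted p = 0.999) by limma. At the 21857 shared E14 regions, a choice made after the data were seen, 37 promoters could be tested, 0 were called by limma and 0 had an unadjusted p under 0.05. Bmp3 differed between orientations by 0.49 (SE 0.63, adjusted p = 1), so its loss in K4-K27 was not shown to differ from that in K27-K4.

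A list of 57 other genes of the pathway, from SMADs and co-receptors to further antagonists, gives the setting. In E14 cells, reChIP signal was higher than the totals at 32 of 51 of their promoters, beside 36.7% of all gene promoters, with a median difference of 1.76. H3K4me3 was higher than H3K27me3 at 25 of 53, beside 63.6% of all gene promoters, with a median of 0.97. Among those called in DKO against WT, and named after their values were seen, were Smad9, Chrdl1 and Id2. Smad9, a BMP-responsive SMAD gene, was lower by limma in K4-K27, at -2.75 (SE 0.61, adjusted p = 0.00149), and in K27-K4, at -2.12 (SE 0.44, adjusted p = 0.00065). Chrdl1, a relative of Chrd, was lower in total H3K4me3, at -1.96 (SE 0.54, adjusted p = 0.0169) by limma. Id2, a target of BMP signalling, was the only one of the list that was higher in any of the 4 ChIPs, in total H3K27me3, by 1.31 (SE 0.41, adjusted p = 0.0487) by limma.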

How the data were processed

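Values of 26 ChIP-reChIP-seq libraries were taken from 12 deposited tables of regions. Per the labels and the study's methods, the authors trimmed reads with Trim Galore 0.6.6, aligned them with BWA 0.7.13 to GRCm38, kept mapping quality over 20 and extended reads by 200 bp, and the submitters' processing notes also name SAMtools 1.9, Picard 2.6.0, deepTools 3.5.0 and MACS2. The authors deposited log2 RPM per kb for each region, with a region without reads entered as 0.9 reads. Whole reads could be recovered from these values (tolerance 0.1). The columns of 32 libraries that belong to no sample here were not used.

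Members and gene lists were chosen with earlier results of these data known. Start sites (31647, of 26180 genes) were curated RefSeq entries of GRCm38.p6. The members' values in every library were given for those called in a DKO against WT fit or a balance fit and for the 3 per role with the highest mean E14 reChIP enrichment, and genes of no E14 table were named. Results of a further gene of the pathway list are not reported here. No promoter entry was used for Bmp2, Bmp3, Bmp7, Gdf3, Gdf5, Gdf6, Gdf9, Tgfb3, Lefty1, Lefty2, Nog, Fst, Bmp1 and Bmpr1b.

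Log2 values, as deposited, were fitted across all regions with limma 3.58.1 (R 4.3.3; trended, robust variances), and the count test of the study was not run. In the fits of DKO against WT and of the balance, the p-values of limma measure the spread of 2 replicates or clones per group. In the E14 fit of reChIPs against totals, each side held 4 libraries from 2 replicates. The interaction fit held both orientations of each clone. A region was called at an absolute log2 difference above 1 and a Benjamini-Hochberg adjusted p under 0.05, and the fits were tested on simulated data. Same-numbered E14 libraries share a sequencing batch and same-numbered clone libraries a clone, so the numbers pair libraries; their deviations correlated between -0.215 and 0.576 in E14 cells and at 0.0845 and 0.0791 between the reChIPs of WT and DKO clones. Alternatives were centring, a filter on low values, plain variances, each library left out, a replicate block, other promoter windows and regions of other tables. Tables were prepared with Python 3.11.15, pandas 2.3.3 and numpy 2.4.6 and drawn with matplotlib 3.10.9.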

Additional observations from a re-analysis of the deposited data

How the results depend on the processing

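Of 878 recomputed values, 191 of 207 counts and 606 of 671 single promoter results kept their direction and their side of the threshold (values with no test moved by less than 1 SD, counts by less than 1.5 times) under the alternatives run. Counts of 0 that stayed at 0 are among those kept, and single fits were followed only for promoters called in the main fit. These shares are therefore not a measure of robustness of the set. With IgG–IgG of WT clone 57, the mean E14 enrichment changed sign at Nodal, from 1.29 to -0.40, and at Gdf3, from 0.49 to -0.34, and that of 7 other promoters moved by more than the SD of the 4 reChIP libraries; the cause was not tested. With each library centred on its median, promoters lower in DKO clones numbered 2 in K4-K27, E14 reChIP calls 7, and E14 balance calls 9 higher and 9 lower. On the adjusted p alone, 6 promoters were lower in the E14 balance. With promoters of 5 kb either side, 2 were lower in K27-K4 of DKO clones, and at the regions of the E14 table Bmp3 (1 promoter) was lower in total H3K27me3. With the replicate block, 10 promoters were higher in the WT balance; it changed no other count by over 1.5 times (26 in the E14 reChIPs, 15 in the E14 balance).

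Leaving out 1 library at a time gave 0 to 1 promoters lower in DKO K4-K27 (0 without WT clone 57), 1 to 11 in K27-K4 (11 without WT clone 58) and 0 to 1 in total H3K4me3 (0 without DKO clone 43 or 53). It gave 0 to 1 lower in the E14 balance (Gdf10 without total H3K4me3 of replicate 1) and 0 to 11 higher in the WT balance. The cause was not tested. With 2 replicates or clones per group, 1 IgG–IgG library per origin and reads from 6741244 to 47903462 per library, low promoters such as Gdf2 rest on few reads. So do low values of other promoters, such as total H3K27me3 of Gdf3.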
